A study of Mus musculus with 8 samples.

Results

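The genes described are 9 transcription factors that establish and keep hepatocyte identity: Hnf4a, Foxa1, Foxa2, Foxa3, Cebpa, Cebpb, Nr5a2, Onecut1 and Prox1. They were chosen by name, for their known role in liver, out of 24079 gene symbols measured both as mRNA and as ribosome-protected fragments (RPFs, or footprints). The livers came from male C57BL/6 mice on a high-fat diet in which fat gave 45% of the energy, begun at week 8 of age, and were taken at week 25. The HF group had this diet alone, and the HB group had the same diet with betaine at 2% (w/v) dissolved in water. Each assay had 2 libraries per group, named HF1, HF2, HB1 and HB2. The labels count 6 mice per group and describe pooled RNA, and the study's methods speak of 2 mice per group, so the replicates are called libraries here and p-values measure the spread between libraries only. The question was how betaine on this diet went with the level of each factor in mRNA, in footprints and in their ratio.

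A hepatocyte is held in its state by a small network of transcription factors that bind each other's genes and the genes for plasma proteins, bile acid synthesis and glucose output. FOXA proteins open chromatin, HNF4A and the C/EBP proteins then drive the adult programme, and ONECUT1, PROX1 and NR5A2 act within the same network during liver development and in the adult. The footprint of a translating ribosome is a short stretch of mRNA shielded from nuclease, so footprints report mRNA under translation. Translation efficiency (TE) is footprint RPKM divided by mRNA RPKM, where RPKM is the number of reads scaled by the length of the gene model and by the total of the library.

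The mRNA libraries held 11661207 to 22543471 reads and were deeper in HB than in HF, and the Ribo-seq libraries held 141890 to 1056546 and were shallower in HB. Read numbers were recovered from the steps in low RPKM values. A level of 3 reads on 1 kb of gene model was 0.133 to 0.257 RPKM in mRNA but 2.84 to 21.1 RPKM in footprints, which limits what the footprints can show for low genes. The tissue label was checked with Alb, the gene of serum albumin, whose mRNA level was 21470, 24883, 31910 and 24178 RPKM in HF1, HF2, HB1 and HB2. The summed mRNA level of 10 hepatocyte markers was 47544 and 48402 RPKM in HF and 54703 and 53036 in HB, and none of the 10 changed at an adjusted p under 0.05 (limma, Benjamini-Hochberg). Of 9 Kupffer cell markers 3 were higher in HB in mRNA at that threshold (Cd5l, Marco and C1qb), beside 7.92% of all tested genes. In footprints 8 of the 9 had negative log2 fold changes with a median of -0.69, where 29.6% of all tested genes had positive ones and the median was -0.43. The mRNA sum of the 9 was 161.0 and 196.3 RPKM in HF and 231.9 and 222.1 in HB. The sum of 5 lymphocyte markers was 5.86 and 8.66 RPKM in HF and 3.18 and 2.87 in HB. In whole liver, fewer cells of a type and less RNA per cell cannot be told apart.

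At the mRNA level, 1 of the 9 factors was higher in HB and 1 was lower by the thresholds of the study (log2 fold change beyond 1 and p under 0.001, limma on log2(RPKM + 1)). The gene that rose was Onecut1, and the gene that fell was Prox1. Across all 10687 tested genes, 2.30% were called higher and 6.56% lower by the same rule. With an adjusted p under 0.05 and no limit on the fold, 1 factor was higher and 2 were lower, Foxa2 being the other, where 7.92% of tested genes were higher and 19.1% lower. For each of the 9 factors both HB libraries lay on the same side of both HF libraries, above in 3 and below in 6. Among all tested genes this separation was common, with 24.8% above and 43.3% below. The median log2 fold change was -0.57 for the 9 factors and -0.19 for all tested genes.

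**Figure D1:**
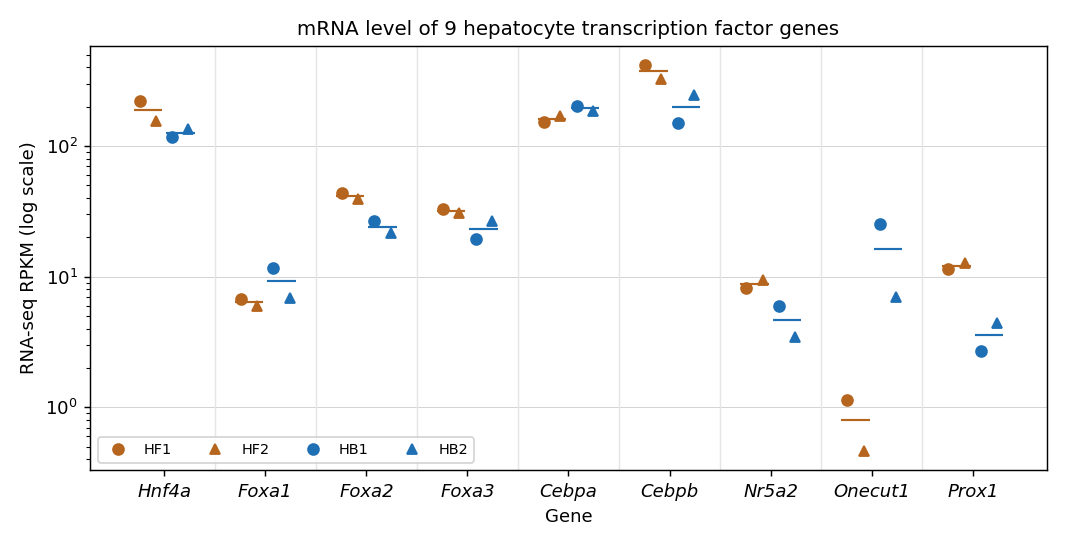
mRNA level of each factor in RPKM on a log axis, with 1 point per library (circles for number 1, triangles for number 2) and short lines for the mean of the 2 libraries of each group. Onecut1 rose from about 1 RPKM in HF to 7.01 and 25.3 in HB, Prox1 fell, and no factor's groups overlapped.

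Onecut1, also known as hepatocyte nuclear factor 6, encodes a cut-homeodomain factor needed for bile duct and pancreas development that also acts in adult hepatocytes. Its mRNA level was 1.13 and 0.464 RPKM in HF1 and HF2, and 25.3 and 7.01 RPKM in HB1 and HB2. Both HB libraries were far above both HF libraries, and HB1 was 3.61 times HB2. The mean was 20.3 times higher in HB than in HF. The log2 fold change was 3.04 (SE 0.47, 95% interval 1.98 to 4.10, n = 2 per group, limma adjusted p = 0.00526), on the log2(RPKM + 1) scale, which understates changes of low genes. This was rank 4 from the top among the tested genes, a set that Onecut1 entered through its HB level, since its HF mean of 0.796 RPKM was under the minimum of 1. Without HB1 it was 2.18 (adjusted p = 0.00501), and without any filter on low genes the adjusted p was 0.237.

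The gene lies on the plus strand of chromosome 9 (chr9:74861921-74891781, GRCm38, GENCODE M21), where a lincRNA gene, Gm20649, overlaps it on the same strand, so that reads of the shared stretch could not be assigned by strand. Since Onecut1 and Prox1 were the factors called, their proximal promoters are shown, read from RefSeq on GRCm38.p6. The 250 bases before the Onecut1 start, chr9:74861671-74861920, plus strand, are printed with the motifs found in capitals. These are an E-box CACGTG 232 bases before the start, a cAMP response half-site TGACG, on the other strand, at 139, and GC boxes GGGCGG at 115 and 68.
Onecut1: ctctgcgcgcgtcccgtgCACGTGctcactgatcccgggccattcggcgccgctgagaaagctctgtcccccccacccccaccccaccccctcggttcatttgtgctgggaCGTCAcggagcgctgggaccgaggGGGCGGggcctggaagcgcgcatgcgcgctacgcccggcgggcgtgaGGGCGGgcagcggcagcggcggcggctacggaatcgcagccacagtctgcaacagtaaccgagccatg
The E-box letters occurred in 6.02% of 32851 promoters of this length, TGACG in 17.8% and GGGCGG in 32.7%, searched on both strands. None of the other 8 factors had the E-box in this window, and Cebpb had TGACG 3 times. A match of letters is a description of the sequence and does not show binding.

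The footprints of Onecut1 rested on few reads. Its RPF level was 4.24 and 1.04 RPKM in HF1 and HF2, 27.7 in HB1 and 0 in HB2. The smallest read numbers that fit these values were 3, 2, 13 and 0, and numbers of 6, 4, 26 and 0 over a gene model of double length fit as well. In HB1 the footprints stood above both HF libraries, and in HB2 none were seen. In HB2, 3 reads would be 11.6 RPKM, or 5.80 with the longer model, beside an mRNA level of 7.01, so a footprint level as high as the mRNA level might have gone undetected at this depth. The RPF log2 fold change was 0.71 with a 95% interval of -3.74 to 5.17 (limma adjusted p = 0.885). Without HB2 it was 3.14 (adjusted p = 0.230), and without HB1 it was -1.71 (adjusted p = 0.268). A higher footprint level of Onecut1 in HB was therefore seen in 1 of 2 libraries and was not resolved between the groups.

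Cholangiocytes also express Onecut1. The summed mRNA level of 8 cholangiocyte markers was 27.7 and 32.9 RPKM in HF and 16.0 and 26.4 in HB. Most of this sum was Spp1, at 23.3 and 27.8 RPKM in HF and 13.7 and 21.8 in HB, while the defining keratin Krt19 stood at 0.933 and 1.75 RPKM in HF and 0.965 and 2.17 in HB. These were the 2 markers tested, with log2 fold changes of -0.53 for Spp1 and 0.11 for Krt19, and neither passed the test. In footprints the sum of the 8 cholangiocyte markers was 15.2 and 15.1 RPKM in HF and 9.86 and 0 in HB, where depth was lowest. Krt7 and Epcam were at 0 in all libraries. The footprint log2 fold changes were -2.09 for Spp1 and -1.08 for Sox9, and neither was called. The summed mRNA level of 8 stellate cell markers was 55.2 and 47.4 RPKM in HF and 94.7 and 63.6 in HB. Much of this sum was Dcn, at 21.9 and 22.4 RPKM in HF and 57.8 and 30.6 in HB. Of the 7 tested, 3 had positive and 4 negative log2 fold changes with a median of -0.02, and none changed at an adjusted p under 0.05 (limma). In footprints the summed level of the same 8 was 169.0 and 135.0 RPKM in HF and 107.7 and 89.8 in HB. All 7 log2 fold changes tested were negative (median -1.04). Among all genes tested in footprints 29.6% had positive ones, and the median was -0.43. The part of these cells in the Onecut1 result was not tested.

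Prox1, a homeodomain factor that marks the hepatoblast, represses genes together with nuclear receptors in the adult liver and also defines lymphatic endothelium. Its mRNA level was 11.4 and 12.7 RPKM in HF1 and HF2, and 2.68 and 4.42 in HB1 and HB2. The HF libraries agreed closely and both HB libraries lay far below them. The mean was 3.40 times lower in HB. The log2 fold change was -1.55 (SE 0.28, 95% interval -2.16 to -0.93, n = 2 per group, limma adjusted p = 0.00666). Leaving out each library in turn gave -1.83 to -1.27, with adjusted p between 0.000904 and 0.0101, and without any filter on low genes the adjusted p was 0.170. The call by the thresholds of the study was lost when log2 values were shifted to a common median per library (log2 fold change -1.27, limma adjusted p = 0.0134).

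The Prox1 gene lies on the minus strand of chromosome 1 (chr1:190118035-190170714), and its antisense genes Gm28172 and Prox1os overlap it on the other strand. The mRNA kit does not mark strand, so reads of sense and antisense RNA cannot be told apart. RefSeq gives 2 start sites for Prox1. The 250 bases before the upstream start, chr1:190170828-190171077, minus strand, held GC boxes GGGCGG 125 and 95 bases before the start and, on the other strand, the letters TATAAA of a TATA box at 34, all in capitals.
Prox1: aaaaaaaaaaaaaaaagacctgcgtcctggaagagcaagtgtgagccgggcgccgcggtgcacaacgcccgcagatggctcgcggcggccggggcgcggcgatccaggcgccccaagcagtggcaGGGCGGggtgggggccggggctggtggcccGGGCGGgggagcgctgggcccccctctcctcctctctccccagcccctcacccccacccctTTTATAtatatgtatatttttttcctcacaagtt
The letters TATAAA occurred on either strand in 12.4% of promoters of this length. Neither Prox1 promoter had the E-box or TGACG found in the Onecut1 promoter.

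Whether the footprints of Prox1 followed its mRNA was not resolved. Its RPF level was 29.5 and 36.2 RPKM in HF1 and HF2, and 11.1 and 40.4 in HB1 and HB2, from 92, 307, 23 and 46 reads. HB1 lay below both HF libraries and HB2 above both, so the groups overlapped, and the HB libraries differed from each other 3.62 times. The RPF log2 fold change was -0.59 with a 95% interval of -2.30 to 1.12 (limma adjusted p = 0.751), a range that includes the change of the mRNA. The TE of Prox1 was 2.59 and 2.84 in HF and 4.16 and 9.13 in HB. With libraries paired by number, both HB ratios were above both HF ratios, but no source ties such pairs to an animal. The log2 change was 0.96 (SE 0.56, limma adjusted p = 0.520), which did not pass the test. It was 1.56 (adjusted p = 0.0375) without HB1 and 0.35 (adjusted p = 0.645) without HB2.

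Lymphatic endothelial cells also express Prox1. The summed mRNA level of 10 endothelial markers was 104.4 and 104.8 RPKM in HF and 71.5 and 88.4 in HB. Of the 9 tested, 6 had negative and 3 positive log2 fold changes. At an adjusted p under 0.05 (limma) 3 were lower, where 19.1% of all tested genes were, and none was higher. They were the scavenger receptors Stab1 (log2 fold change -1.52, limma adjusted p = 0.0104) and Stab2 (-0.90, adjusted p = 0.0341), and the receptor Flt4 (-0.82, adjusted p = 0.0441). These markers were listed for endothelium as a whole and do not single out lymphatic cells. Lyve1 mRNA stood at 5.26 and 2.69 RPKM in HF and 2.28 and 1.40 in HB. Both HB libraries lay below both HF libraries, as in 43.3% of all tested genes. Pdpn mRNA was too low to be tested and lay the other way, at 0 and 0.0470 RPKM in HF and 0.148 and 0.123 in HB. The part of lymphatic endothelial cells in the Prox1 result was not tested.

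The 3 FOXA genes, whose forkhead proteins open liver chromatin for other factors, did not share a direction. Foxa2 (chr2:148042877-148046969) had an mRNA level of 43.4 and 39.4 RPKM in HF and 26.7 and 21.7 in HB. Both HB libraries were clearly lower. The log2 fold change was -0.76 (SE 0.25, limma adjusted p = 0.0493), just past the threshold, and it lost this call without HF1 (adjusted p = 0.323), without HF2 (0.182) and without HB2 (0.0740). It also lost it with a common median (log2 fold change -0.49, adjusted p = 0.182), without a filter (0.183), with a pseudocount of 0.1 (0.0514) and with a common sum (0.0510). Foxa3 (chr7:19013284-19023538) stood at 32.7 and 30.5 RPKM in HF and 19.3 and 26.7 in HB, with a log2 fold change of -0.46 (SE 0.26, adjusted p = 0.216, limma) that was -0.23 without HB1 and -0.68 without HB2. Foxa1 (chr12:57540628-57546916) stood at 6.78 and 6.00 RPKM in HF and 11.6 and 6.89 in HB. Its HB2 value was close to the HF libraries, and the log2 fold change was 0.43 (SE 0.29, limma adjusted p = 0.284). It was 0.77 (adjusted p = 0.0399, limma) without HB2 and 0.096 (adjusted p = 0.804) without HB1. None of these genes overlapped another gene in the annotation.

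The C/EBP genes encode leucine-zipper factors, Cebpa of the adult metabolic state and Cebpb of the response to injury, inflammation and fasting. Cebpb (chr2:167688915-167690418) had an mRNA level of 414.3 and 327.8 RPKM in HF and 148.4 and 247.3 in HB, the highest of the 9 factors in HF. Both HB libraries were lower, but they differed 1.67 times from each other. The log2 fold change was -0.94 (SE 0.32, limma adjusted p = 0.0519), which missed the threshold, and over the alternatives the adjusted p ran from 0.00421 to 0.355. It was -0.57 (adjusted p = 0.128) without HB1 and -1.31 (adjusted p = 0.00421) without HB2. Cebpa (chr7:35119293-35121928) had 152.0 and 168.8 RPKM in HF and 202.2 and 185.5 in HB, with a log2 fold change of 0.27 (95% interval -0.30 to 0.84, limma adjusted p = 0.449). The means of the 2 genes were 371.1 and 160.4 RPKM in HF, and 197.9 and 193.9 in HB, where their libraries overlapped. Tmem189 overlaps Cebpb on the other strand and stood at 10.8 to 16.8 RPKM in mRNA, far below it, and Gm45091 lies antisense at Cebpa.

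Hnf4a and Nr5a2 encode nuclear receptors, HNF4A a broad activator of hepatocyte genes and NR5A2 a regulator of bile acid and cholesterol genes. The mRNA level of Hnf4a (chr2:163506808-163572910) was 220.7 and 155.7 RPKM in HF and 116.7 and 133.7 in HB. The groups did not overlap, but HF1 and HF2 differed 1.42 times, and the log2 fold change of -0.57 (SE 0.28, 95% interval -1.19 to 0.06) did not pass the test (limma adjusted p = 0.156). Without HF1 it was -0.32, and leaving out each other library gave -0.82 to -0.47, with no adjusted p under 0.05. The antisense gene Hnf4aos stood at 4.17 and 5.52 RPKM in HF and 7.37 and 9.64 in HB. The mRNA level of Nr5a2 (chr1:136842571-136960448) was 8.16 and 9.50 RPKM in HF and 5.93 and 3.46 in HB. Its log2 fold change was -0.82 (SE 0.28, limma adjusted p = 0.0583), short of the threshold. It was -1.14 (adjusted p = 0.0159) without HB1 and -0.50 (adjusted p = 0.156) without HB2.

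In footprints, no factor was called in either direction (limma, log2 fold change beyond 1 and p under 0.05), and 0 of the 9 had an unadjusted p under 0.05. Of the 11190 tested genes, 1.58% were called higher and 7.86% lower. The test of voom on recovered reads called 1 factor higher, Onecut1 (log2 fold change 1.89, adjusted p = 0.435). Without a filter on low genes Foxa2 was called higher, and with RPKM rescaled to a common sum 4 factors were called lower, Hnf4a, Foxa3, Cebpa and Prox1, while the median of all genes moved to -1.19. The standard errors of the 9 log2 fold changes were 0.30 to 1.72, against 0.25 to 0.47 in mRNA. Both HB libraries lay above both HF libraries for 1 factor, Foxa2, and below for 3, Hnf4a, Foxa3 and Cebpa, where 9.07% of tested genes lay above and 33.2% below. The median log2 fold change was -0.27 for the factors and -0.43 for all tested genes.

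**Figure D2:**
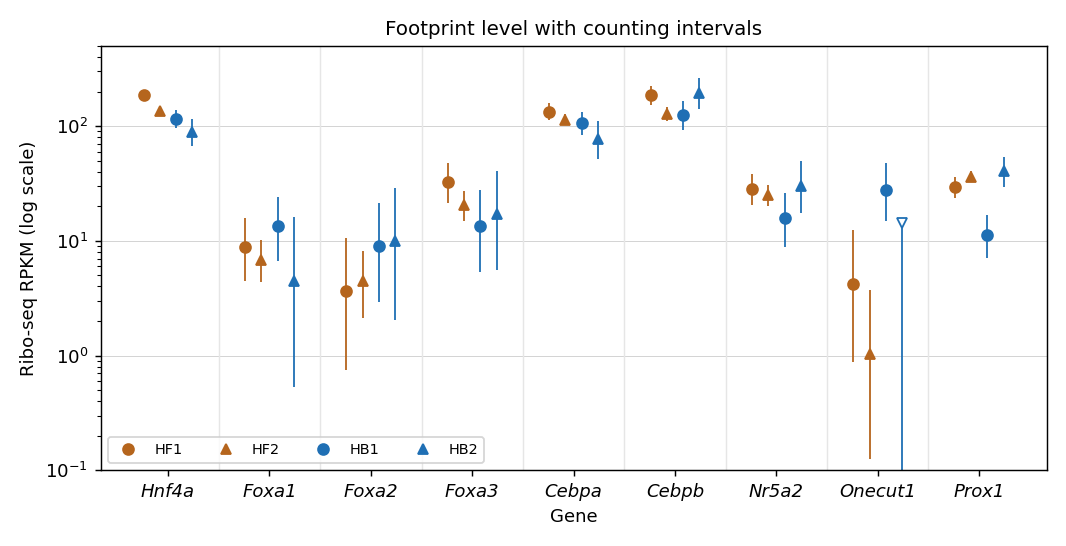
Footprint level of each factor in RPKM on a log axis, 1 point per library, with vertical lines for exact 95% Poisson intervals that cover counting error only. The open triangle is the upper limit of Onecut1 in HB2, where no read was seen, and the intervals of Foxa1 and Foxa2 overlap between the groups, while that of Onecut1 in HB1 lies above those of both HF libraries.

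The factors with the most footprint reads were Hnf4a, Cebpa, Prox1 and Cebpb. The RPF level of Hnf4a was 186.0 and 135.7 RPKM in HF and 116.0 and 88.2 in HB, from 317, 630, 131 and 55 reads. It was lower in HB in both libraries, as its mRNA was, with a log2 fold change of -0.65 (95% interval -1.46 to 0.17, limma adjusted p = 0.561). The RPF level of Cebpa was 134.0 and 113.8 RPKM in HF and 106.2 and 77.5 in HB, from 137, 317, 72 and 29 reads. Its footprints lay lower in HB while its mRNA lay higher, and neither difference passed the test (RPF log2 fold change -0.44, 95% interval -1.22 to 0.34, limma adjusted p = 0.649). The RPF change of Cebpa was near the median of all tested genes, -0.43. The RPF level of Cebpb was 185.1 and 128.4 RPKM in HF and 125.6 and 195.0 in HB, from 109, 206, 49 and 42 reads. These groups overlapped, and the log2 fold change was 0.02 with a 95% interval of -0.91 to 0.96.

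The other factors had fewer footprint reads. Foxa2, lower in HB in mRNA, had an RPF level of 3.62 and 4.43 RPKM in HF and 9.10 and 9.89 in HB. These values rest on 3, 10, 5 and 3 reads, and the exact 95% Poisson interval in HB2 ran from 2.04 to 28.9 RPKM, so it includes both HF values. The log2 fold change was 1.07 (SE 0.52, 95% interval -0.28 to 2.42, limma adjusted p = 0.561). Foxa3 had 32.9 and 20.4 RPKM in HF and 13.4 and 17.3 in HB, from 26, 44, 7 and 5 reads, and it was lower in HB in both assays without passing the test (RPF log2 fold change -0.73, 95% interval -1.84 to 0.37). Foxa1 had 8.91 and 6.84 RPKM in HF and 13.5 and 4.43 in HB, from 11, 23, 11 and 2 reads. The HB libraries lay on either side of HF, with a log2 fold change of 0.01 (95% interval -1.72 to 1.74). Nr5a2 had 28.4 and 24.9 RPKM in HF and 15.7 and 30.3 in HB, from 41, 98, 15 and 16 reads, again on either side of HF (log2 fold change -0.27, 95% interval -1.43 to 0.88).

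In TE, no factor was called (limma, log2 change beyond 2 and p under 0.05), 0 of the 9 had an unadjusted p under 0.05, and an interaction model over all 8 libraries also called 0. With RPKM rescaled to a common sum, Onecut1 was called lower (adjusted p = 0.159). Of the 9455 genes tested, 1.49% were called higher and 4.60% lower. Both HB ratios lay above both HF ratios for 3 factors, Foxa2, Cebpb and Prox1, and below for 2, Cebpa and Onecut1, where 13.2% of genes lay above and 31.9% below. The median log2 change was -0.08 for the factors and -0.35 for all tested genes. Ratios were formed from the RNA-seq and Ribo-seq libraries of the same group and number, although no source ties such a pair to 1 animal. The ratio of a single library, and whether the ratios of HF and HB overlap, therefore depend on this pairing and can change when numbers are crossed.

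**Figure D3:**
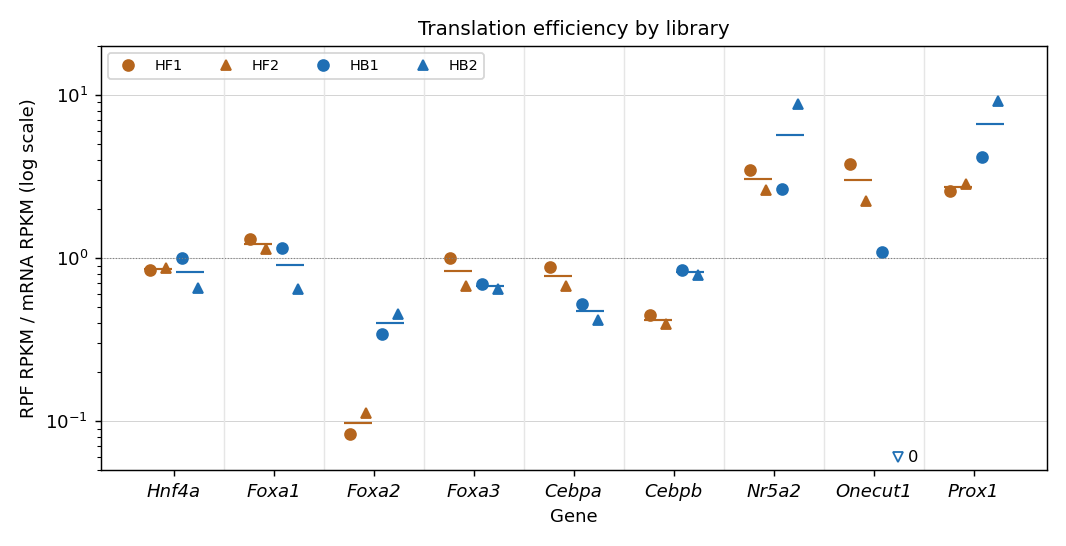
TE of each factor, footprint RPKM divided by mRNA RPKM, on a log axis with 1 point per library and short lines for group means. Foxa2 had the lowest ratios in HF and Nr5a2, Onecut1 and Prox1 the highest, and those of Foxa2 and Onecut1 rest on few footprint reads. The ratio of Onecut1 in HB2 is 0 and is drawn as an open triangle at the foot of the plot, with no mean for that group.

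The factors spread widely in TE. In HF, Foxa2 had a TE of 0.0833 and 0.112, from 3 and 10 footprint reads. This was percentile 2.35 of the genes tested, where the median gene had 1.06. In HB the ratio of Foxa2 was 0.341 and 0.456, from 5 and 3 footprint reads. This was the lowest mean of the 9 factors there too, but it overlapped the libraries of Cebpa, and Onecut1 was at 0 in HB2. The log2 change of Foxa2 was 1.82 (SE 0.82, 95% interval -0.17 to 3.82, limma adjusted p = 0.438), and it was called higher without HB1 (log2 change 2.02, adjusted p = 0.0801). At the other end, Nr5a2 had a TE of 3.48 and 2.62 in HF and 2.65 and 8.75 in HB, at percentile 87.0 in HF. Prox1 stood at percentile 84.1 in HF and 99.1 in HB, where its mRNA had fallen.

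Cebpb had a TE of 0.447 and 0.392 in HF and 0.846 and 0.789 in HB. With libraries paired by number, the ratios were close within each group and the HB mean was 1.95 times higher. The HB libraries differed 1.67 times in mRNA and 1.55 times in footprints, so this closeness rests on the pairing. The log2 change of 0.96 (SE 0.62, limma adjusted p = 0.556) did not pass a test whose error is shared across genes. Cebpa had 0.881 and 0.674 in HF and 0.525 and 0.418 in HB, so the 2 C/EBP genes lay in opposite directions, and neither log2 change was called (Cebpa -0.71, 95% interval -2.24 to 0.82). Hnf4a had 0.843 and 0.872 in HF and 0.994 and 0.660 in HB, with a log2 change of -0.08 (95% interval -1.50 to 1.34). Foxa1 had 1.31 and 1.14 in HF and 1.16 and 0.643 in HB, and Foxa3 had 1.00 and 0.670 in HF and 0.693 and 0.646 in HB, both with overlapping groups. Onecut1 had 3.76 and 2.24 in HF, from 3 and 2 footprint reads (or 6 and 4 with the longer gene model), and 1.10 and 0 in HB. The log2 change of Onecut1 was -2.33 (SE 1.08, limma adjusted p = 0.452). This value depended on HB1 and HB2: it was -3.89 (adjusted p = 0.00507) without HB1 and -0.76 (adjusted p = 0.379) without HB2, the library with no Onecut1 footprint.

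**Figure D4:**
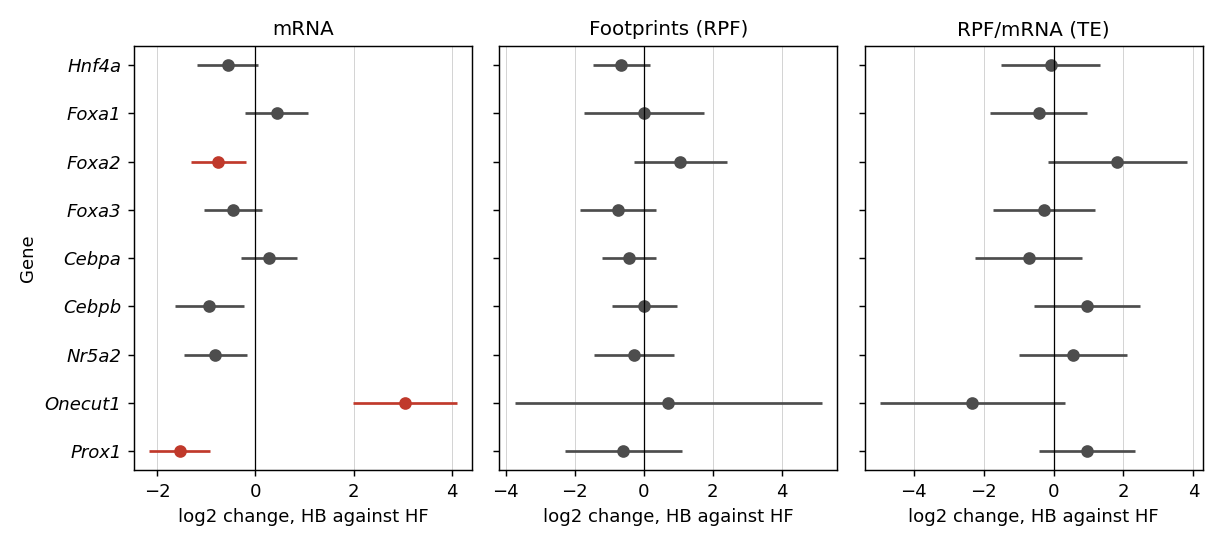
Log2 change in HB against HF of each factor in mRNA, footprints and TE, with lines for 95% intervals from limma and red for an adjusted p under 0.05. The red points, all in mRNA, are Onecut1 at 3.04, Prox1 at -1.55 and Foxa2 at -0.76, and every interval in footprints and TE includes 0.

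By mRNA level, Onecut1 and Prox1 exchanged ranks 9 and 6 between the groups. In HF the mean mRNA level fell in the order Cebpb, Hnf4a, Cebpa, Foxa2, Foxa3, Prox1, Nr5a2, Foxa1 and Onecut1, and only Hnf4a and Cebpa overlapped as neighbours. In HB the order was Cebpb, Cebpa, Hnf4a, Foxa2, Foxa3, Onecut1, Foxa1, Nr5a2 and Prox1. Neighbours overlapped in HB for Cebpb and Cebpa, from Foxa2 to Foxa1, and for Nr5a2 and Prox1. By footprints, Hnf4a, Cebpb and Cebpa led in both groups with means of 91.9 to 160.9 RPKM, and Prox1 and Nr5a2 came next, above Foxa2, although Foxa2 had more mRNA than either in both groups.

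The other genes of the network were taken from lists of known members. Among other liver-enriched transcription factors, 10 of 29 tested were lower in HB in mRNA at an adjusted p under 0.05 and 0 were higher (limma), where 19.1% of all tested genes were lower and 7.92% higher. By the thresholds of the study 2 were lower and 0 higher, where 6.56% of all tested genes were lower and 2.30% higher. The median log2 fold change of the list was -0.57. The bile acid receptor Nr1h4 had 224.2 and 176.3 RPKM in HF and 47.2 and 63.6 in HB (log2 fold change -1.84, adjusted p = 0.00526, limma). The repressor Bcl6 (-1.59, adjusted p = 0.00980), the xenobiotic receptor Nr1i2 (-1.23, 0.0128) and Esrra, an orphan receptor of mitochondrial genes (-1.12, 0.0131), were also lower. Both HB libraries lay below both HF libraries in these 4 genes, which were picked by smallest p. That held for 17 of the 29 and for 43.3% of all tested genes. In footprints 2 of 29 were called lower, Onecut2 (log2 fold change -1.48), the paralog of Onecut1, and Gata6 (-2.10), with adjusted p = 0.493 for both, and none was called higher, where 7.86% of all tested genes were called lower. Gata6 footprints were 6.46 and 1.48 RPKM in HF and 0 in both HB libraries, where 3 reads on 1 kb would be 11.7 and 21.1 RPKM, so levels like those in HF might have gone undetected there. In TE, Bcl6 was called higher (log2 change 2.28, adjusted p = 0.396, limma), 1 of 29, where 1.49% of all tested genes were called higher.

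Of 14 coregulators and inhibitors tested in mRNA, 3 were lower at an adjusted p under 0.05 and 0 higher (limma), a share close to the 19.1% of all tested genes that were lower. All 14 log2 fold changes were negative, with a median of -0.55, where 39.8% of all tested genes had positive ones. The 3 were Ddit3, the C/EBP partner that blocks DNA binding (-1.22, adjusted p = 0.0133), Trib1, which targets C/EBP alpha for degradation (-1.05, 0.0182), and the coactivator Ncoa3 (-0.79, 0.0434). In footprints 4 of 15 were called lower, Hdac3 (-1.44), Trib1 (-2.35), Ddit3 (-2.49) and Ncor1 (-1.09), each with adjusted p = 0.493, and none was called higher, beside 7.86% of all tested genes called lower. Trib1 and Ddit3 were thus lower in mRNA and called lower in footprints, where neither had an adjusted p under 0.05. In HB1 and HB2, where the depth was lowest, 3 reads on 1 kb would be 11.7 and 21.1 RPKM. Ddit3 footprints were 8.88 and 2.17 RPKM in HF and 0 in both HB libraries. Levels of Ddit3 like those in HF might have gone undetected there. Trib1 footprints were 26.89 and 23.98 RPKM in HF and 8.695 and 1.751 in HB. Both HB values of Trib1 lay under those 3-read levels, so the size of its footprint change is uncertain. In TE none of the 14 was called.

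Known target genes of the factors moved in both directions. Of 17 HNF4A targets, 3 were higher in mRNA at an adjusted p under 0.05 and 0 were lower (limma), beside 7.92% higher and 19.1% lower among all tested genes, and the median log2 fold change was 0.11, against -0.57 for Hnf4a itself. They included the bile acid 12-alpha-hydroxylase Cyp8b1 (log2 fold change 1.81, limma adjusted p = 0.0122) and transferrin, Trf (1.10, 0.0307). Cyp8b1 stood at 63.1 and 34.3 RPKM in HF and 113.3 and 242.9 in HB. In footprints G6pc, the glucose-6-phosphatase of glucose output, was called lower (log2 fold change -1.16, adjusted p = 0.493), and in TE Cyp8b1 was called lower (log2 change -2.50, adjusted p = 0.364, limma), 1 of 17 in each, where 7.86% and 4.60% of all tested genes were called lower.

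Of 11 C/EBP targets, Hamp, the gene of the iron hormone hepcidin, was lower in mRNA (log2 fold change -1.54, adjusted p = 0.0136, limma) and called higher in TE (log2 change 3.83, adjusted p = 0.364), and the median mRNA log2 fold change was -0.11. Its mRNA stood at 5918 and 8675 RPKM in HF and 2113 and 2859 in HB. G6pc belongs to this list as well and was its only footprint call. Of 6 FOXA targets none was called in mRNA, footprints or TE, none had an mRNA adjusted p under 0.05, and the mRNA median was 0.02. Of 6 NR5A2 targets, Cyp8b1 was higher, while Nr0b2, a small corepressor receptor (-1.39, adjusted p = 0.0198), and the sterol transporter Abcg5 (-1.02, 0.0330) were lower in mRNA. Their median was -0.28. The shares of all tested genes beside these 3 lists are the same 7.92% higher and 19.1% lower in mRNA, with 7.86% called lower in footprints and 1.49% called higher in TE. Of 10 fetal liver genes, 0 reached a mean of 1 RPKM in mRNA, and 1 was tested in footprints, Cd24a (log2 fold change 0.34, limma adjusted p = 0.935). In mRNA Afp stood at 0.0795 to 0.213 RPKM.

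**Figure D5:**
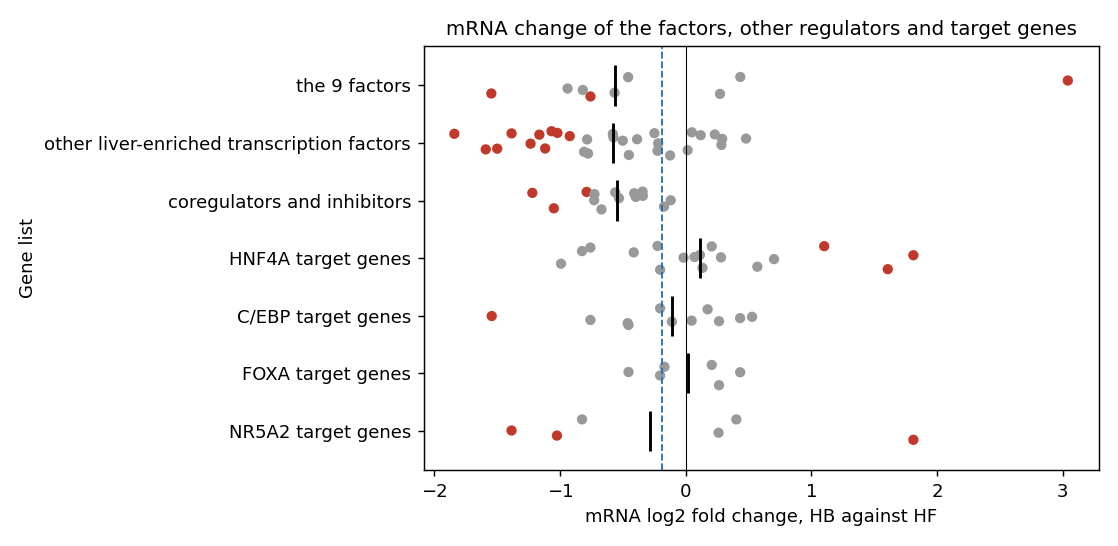
mRNA log2 fold change in HB against HF for the tested genes of each list, with red for an adjusted p under 0.05, black bars for list medians and a dashed blue line for the median of all tested genes at -0.19. The vertical position within a list has no meaning. The other transcription factors and the coregulators have medians near -0.57 and -0.55, and the HNF4A targets have one of 0.11.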

How the data were processed

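Liver mRNA and footprints were measured in 8 libraries, 2 per group and assay. The authors used FANSe2 and the mm10 genome for mapping, and deposited values in RPKM, 1 per gene and library. Per the submitters' processing notes, edgeR was used for their own tests of expression, and the study's methods give a t-test for TE. Whether footprints were counted over coding sequence is not stated. The gene lengths that the deposited RPKM values imply were longer than the longest coding sequence for each of the 9 factors (1518 to 8274 bases). Untranslated parts thus enter the length that divides the footprint reads. How far this lowers footprint RPKM and TE depends on how many footprints lie in those parts, which was not tested per gene. The paper reports most RPFs in coding sequence and the rest in untranslated parts, mainly after it. The coding share was larger with betaine.

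Library totals were estimated from the steps of 1 read in low RPKM, and whole reads were recovered for 98.3% to 98.6% of the genes above 0. They entered only the counting intervals (exact Poisson, 95%), the 3-read levels and the voom alternative. The test was limma (version 3.58.1, R version 4.3.3) on log2(RPKM + 1) for genes whose RPKM averaged 1 or more in the assay, by eBayes with an intensity trend, two-sided, with Benjamini-Hochberg adjustment over all genes tested. For TE the same test took the difference of both log2(RPKM + 1) values. Printed TE values carry no added constant. All 9 factors passed the filters. Calls used the thresholds of the study for mRNA, RPF and TE. In all, 24535 mRNA symbols and 25033 footprint symbols were used, and 4 mRNA entries that share a symbol were left out.

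The 9 factors and the lists were chosen with earlier results of these data known. Of each list, counts are given, and up to 4 genes per measure and direction are named by smallest p among those with an adjusted p under 0.05 in mRNA or called in RPF or TE. Some of the genes so selected are left out here. The fits were tested on simulated data. Alternatives were other pseudocounts, filters and scalings, no trend, blocks by number, leaving out each library, voom on reads, and for TE an interaction model and crossed numbers. Standard-diet animals were not analysed here. Diet length is 17 weeks in the study's methods and 25 weeks in the labels.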

Additional observations from a re-analysis of the deposited data

How the results depend on the processing

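Over 17 alternative settings, 352 of 405 values for single factors kept their direction and their side of the threshold. Onecut1 stayed higher in mRNA (log2 fold change 2.18 to 4.18) and Prox1 lower (-1.83 to -1.27) in the 15 that apply to mRNA. With a pseudocount of 0.1, 1 factor was lower in mRNA at an adjusted p under 0.05. Without a filter on low values, 0 factors were called higher or lower in mRNA, 0 had an adjusted p under 0.05 in either direction (limma), and 1 was called higher in RPF. The cause was not tested. Log2 values shifted to a common median moved the all-gene mRNA median from -0.19 to 0.08, left 0 factors called lower and 1 lower by adjusted p, and gave a factor median of -0.29. RPKM rescaled to a common sum gave 4 factors called lower in RPF (median -1.12, with -1.19 for all genes) and 1 lower in TE (median -0.90). The test of voom on recovered reads called 1 factor higher in RPF. Leaving out each library gave 1 to 2 factors called lower in mRNA, 1 to 2 higher and 1 to 3 lower by adjusted p, and an mRNA median of -0.72 to -0.41. It gave 0 to 1 called in each direction in RPF and in TE. Where a group kept 1 library, that library was assumed to vary like the others.

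Library numbers are shared by the groups but the labels do not tie them to a mouse or batch, and deviations of same-numbered libraries correlated at -0.104 in mRNA and -0.0138 in RPF. With the replicate number as a block, 1 factor was called lower in TE (Onecut1) and 3 were lower in mRNA by adjusted p. The crossed block and scaling to protein-coding reads were chosen after seeing the data, and the crossed block gave 4 lower in mRNA by adjusted p and 1 lower in TE.

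Some changes that were not called turned sign. In RPF, Foxa1 was -0.014 and Onecut1 -0.41 with a pseudocount of 0.1, Nr5a2 was 0.052 with a common median, and Foxa1 was -0.74 and Cebpb -0.85 with a common sum. In TE, Nr5a2 was -0.27 with a common sum and Hnf4a 0.064 with protein-coding scaling. Leaving out a library gave RPF ranges of -0.70 to 0.71 for Foxa1, -0.29 to 0.34 for Cebpb, -0.73 to 0.18 for Nr5a2, -1.71 to 3.14 for Onecut1 and -1.47 to 0.30 for Prox1, and TE ranges of -0.37 to 0.21 for Hnf4a, -0.56 to 0.0055 for Foxa3 and -0.23 to 1.32 for Nr5a2. The cause was not tested. Footprint depth in HB2, the shallowest library, limits every RPF and TE value.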
